A study of Homo sapiens with 38 samples.

Results

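The 3 parent Y RNA genes RNY1, RNY3 and RNY4 were followed through 11 preparations of material released by DiFi cells, a human colorectal cancer line. The members were the entries of the Y RNA class whose first symbol is exactly RNY1, RNY3 or RNY4, which gave 3 of the 733 Y RNA entries and of the 22549 features in the table. The other Y RNA entries were 15 named copies of RNY1, 14 of RNY3, 22 of RNY4 and 679 entries with no symbol of their own, and RNY5 was not found in the table. Small RNA was treated with AlkB, a demethylase that removes methyl groups which block reverse transcription, before libraries were made and sequenced. Ultracentrifugation (UC) pelleted, in turn, small extracellular vesicles (sEV) and then 2 kinds of particle without a membrane, exomeres and supermeres. The sEV were spun at 167000 g for 4 h, the exomeres at 167000 g for 16 h and the supermeres at 367000 g for 16 h. This was done on flat cultures (2D), kept without serum for 48 h and collected as 3 pools of 1360 mL, and on a hollow-fibre bioreactor (3D), collected as 4 pools of about 400 mL. FPLC exomeres and FPLC supermeres came from the 3D medium by chromatography, and Gradient 6_7, Gradient 9_10 and Gradient 12 are density gradient fractions, on a cushion, of that same medium. The labels speak of lighter and heavier vesicles and of material outside vesicles in the gradient without tying each to a number, so the fraction numbers are kept. All groups came from this 1 cell line, and the labels name no drug or genetic change. Culture and medium volume differed together between 2D and 3D, and a serum-free time is given for 2D alone. These cannot be told apart.

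The UC groups had 3 libraries each and the FPLC and gradient groups 4 each, 38 in all. One 3D UC supermere library held 46 counts in total and was left out, which left 37 libraries with totals from 81079 (Gradient 9_10 C) to 16991360.5 (2D UC sEV B) and n = 2 for 3D UC supermere. Nothing ties a library letter to a medium pool, and a p-value therefore reflects no more than how far these libraries vary, which may be technical. All 7 epithelial and intestinal miRNAs checked were detected in every group, with summed levels from 50327 to 123689 CPM (counts per 1000000 counts of the library) in UC sEV libraries and from 55.3 to 501 CPM in FPLC supermere libraries. The 7 blood cell miRNAs summed to at most 1637 CPM in any library, reached in Gradient 9_10, and both liver and endothelial miRNAs were at 0 in Gradient 12. No 2 libraries held identical values.

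Y RNAs are short non-coding RNAs made by RNA polymerase III. Each folds into a stem, formed by its 2 ends, and an internal loop; the Ro60 protein binds the stem and the La protein binds the uridine run at the 3′ end. They are known for roles in RNA quality control and in the start of DNA replication, and fragments cut from their ends are abundant in extracellular RNA and in tumour cell medium.

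The 3 genes lie on chromosome 7 (GRCh38, as annotated in GENCODE release 29), and each annotated gene is a single-exon non-coding transcript. RNY1 (ENSG00000201098.1) is at chr7:148987136-148987248 on the minus strand and 113 bases long, and RNY4 (ENSG00000252316.1) is at chr7:148963315-148963410 on the plus strand and 96 bases long. The GENCODE sequences of these 2 are shown because they share stretches with each other and with their copies. Capitals mark the 11 bases that both share at the 5′ end.
RNY1: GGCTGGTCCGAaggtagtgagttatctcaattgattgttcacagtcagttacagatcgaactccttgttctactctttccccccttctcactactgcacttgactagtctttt
RNY4: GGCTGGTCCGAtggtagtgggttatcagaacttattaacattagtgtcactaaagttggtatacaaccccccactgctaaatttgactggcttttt
The shared block stands at the start of 38 of the 733 Y RNA entries (5.18%), both genes included, and was found nowhere else in an entry. On either strand, 7 of 35116 RefSeq promoter windows of the same assembly (0.0199%) held it. RNY1 ends in 4 T and RNY4 in 5 T, the stretch where La binds in the RNA. Over their whole length the 2 were 64.7% identical.

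Few 25-base stretches of RNY1 and RNY4 belonged to the parent gene alone. Of the windows of this length, 88 of 89 in RNY1 and 71 of 72 in RNY4 occurred exactly in at least 1 other Y RNA entry, as drawn in the plot of shared windows. Windows of RNY1 were held by up to 32 other entries and those of RNY4 by up to 15. The first window was held by 1 other entry for RNY1 and 4 for RNY4. The 4 most abundant Y RNA entries other than the members, by mean CPM over the 37 libraries, were all more like RNY4 than RNY1. They carry the 5′ end of RNY4 unchanged for 30 to 42 bases and then differ from it. Capitals mark the 5′ stretch identical to RNY4, and the sequences are shown because their counts were set against those of RNY4.
RNY4P10: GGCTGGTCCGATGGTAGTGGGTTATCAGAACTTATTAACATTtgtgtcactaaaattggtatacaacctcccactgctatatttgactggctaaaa
ENSG00000201778.1: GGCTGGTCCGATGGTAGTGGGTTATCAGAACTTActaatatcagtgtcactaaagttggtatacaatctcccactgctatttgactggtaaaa
RNY4P7: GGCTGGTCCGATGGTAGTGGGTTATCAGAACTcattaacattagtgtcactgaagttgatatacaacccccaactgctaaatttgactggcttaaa
RNY4P20: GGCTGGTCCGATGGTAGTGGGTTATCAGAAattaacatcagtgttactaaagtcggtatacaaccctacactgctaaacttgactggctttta
RNY4P10 lies at chr6:33199601-33199696 on the plus strand and shares 42 bases, the unnamed entry ENSG00000201778.1 at chr3:157153548-157153640 on the plus strand shares 34, RNY4P7 at chr2:127798903-127798998 on the minus strand shares 32, and RNY4P20 at chr6:151298841-151298933 on the minus strand shares 30. How reads that match several entries were divided is not given in the sources used here.

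**Figure D1:**
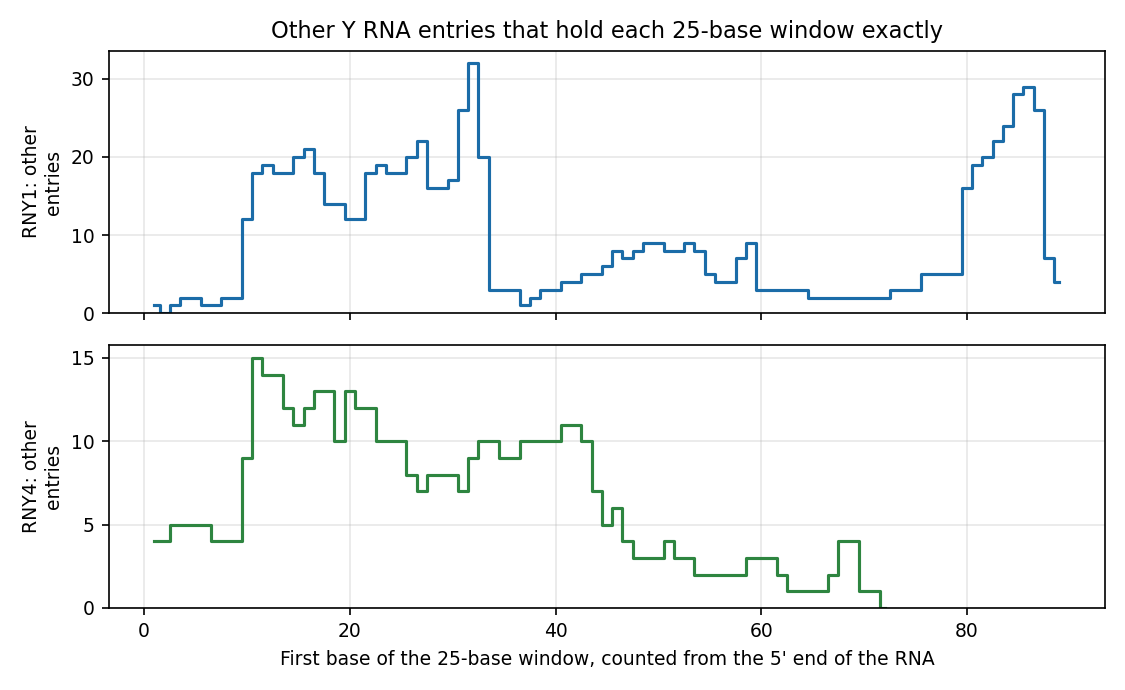
Number of other Y RNA entries (vertical axis) that hold each 25-base window of RNY1 and RNY4 exactly, against the first base of the window in the RNA. The first windows of RNY1 and RNY4 are held by 1 and 4 other entries, and no window of RNY4 is held by more than 15.

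RNY1 was the most abundant member per base in most libraries. Its level per base exceeded that of RNY4 in 28 of 37 libraries, RNY4 exceeded RNY1 in the other 9, and RNY3 was lowest in all 37. The 9 were all 4 Gradient 6_7, all 4 Gradient 12 and 1 of the 4 Gradient 9_10 libraries. This order is that of the parent entries alone. With the counts of the named copies added to each parent, it reversed in some groups and not in others. In 2D UC sEV RNY4 then made up a mean of 55.4% and RNY1 42.9%. In 2D UC exomeres RNY1 stayed ahead, at 64.4% against 35.5%. Together the 3 made up 56.7% ± 5.14 (SD, n = 2) of all counts in 3D UC supermeres and 32.5% ± 6.16 (SD, n = 3) in 3D UC exomeres. At the other end, in Gradient 12 they made up 0.0319% ± 0.0178 (SD, n = 4).

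RNY1 stood highest in supermeres of the bioreactor. The 2 3D UC supermere libraries had 453348 and 519404 CPM of RNY1, the highest level of any group. The 3D UC exomeres had 210514, 239377 and 146160.0 CPM and the 3D UC sEV 81337, 96572 and 95221 CPM, and the 3 ranges did not overlap. In FPLC exomeres RNY1 was at 61327, 72431, 82022 and 61545 CPM. In FPLC supermeres it was at 24155, 101356, 140778 and 105056 CPM, with library A below the other 3.
In 2D UC sEV the values were 37409.6, 30176 and 44582 CPM and in 2D UC exomeres 53862, 54601 and 44109.5 CPM, overlapping at their edges. The 2D UC supermeres had 8570.2, 8732 and 28933 CPM, with library C above A and B. Gradient 9_10 held 4561, 28350.3, 33152 and 35964 CPM, where library A stood far below the others and within the range of Gradient 6_7, which held 5134, 1970.1, 6532 and 6115 CPM. Gradient 12 was lowest at 102, 46.2, 159.7 and 291 CPM, clear of every other group. From the highest mean down, the groups ran 3D UC supermere, 3D UC exomere, FPLC supermere, 3D UC sEV, FPLC exomere, 2D UC exomere, 2D UC sEV, Gradient 9_10, 2D UC supermere, Gradient 6_7 and Gradient 12. Neighbours in this order overlapped from FPLC supermere to FPLC exomere and from 2D UC exomere to 2D UC supermere.

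RNY3 had another order, with sEV and 2 gradient pools on top. The 2D UC sEV libraries had 1577, 1236 and 1438 CPM, above every library of every other group. Gradient 6_7 had 378, 136, 508 and 455 CPM, Gradient 9_10 123, 174, 244 and 306 CPM and 3D UC sEV 221, 159 and 169 CPM, and each of these overlapped the next. FPLC exomeres had 80.6, 123, 63.6 and 73.1 CPM, below all 3D UC sEV libraries. No library of the other 6 groups exceeded 20.6 CPM. The 2D UC exomeres had 13.8, 20.6 and 7.58 CPM and 2D UC supermeres 14.4, 5.43 and 4.48 CPM. The 3D UC exomeres had 4.41, 7.08 and 2.62 CPM and the 3D UC supermeres 6.18 and 3.21 CPM. Gradient 12 had 3.12, 1.15, 1.80 and 4.38 CPM and FPLC supermeres 0.494, 1.95, 1.66 and 1.28 CPM. These 6 low groups overlapped their neighbours throughout. Few counts stand behind them: RNY3 had 1.4 to 8.7 counts per Gradient 12 library, 1.9 to 18 per FPLC supermere library and 12.8 to 13.3 per 3D UC supermere library, against 16820 to 21004 in 2D UC sEV.

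RNY4 stood highest in 3D UC exomeres, with 125540.0, 141264 and 112716 CPM, followed by 3D UC supermeres with 77775 and 84451 CPM, and these 2 groups overlapped neither each other nor any other group. FPLC supermeres had 11151, 37536, 23817 and 35275 CPM and FPLC exomeres 21925, 25417, 30752 and 26656 CPM. The 3D UC sEV had 10393, 29890.3 and 31832 CPM, with library A below B and C. In the flat culture the fractions were separate. The 2D UC sEV had 20546, 18072 and 18982 CPM, the 2D UC exomeres 7144, 7643 and 8585 CPM and the 2D UC supermeres 1552, 1478 and 1057 CPM, a stepwise order with no overlap. Gradient 9_10 had 4473, 16173, 25996 and 22858 CPM, Gradient 6_7 7724, 3132, 9490.4 and 9859 CPM and Gradient 12 166, 83.9, 150.2 and 264 CPM. Gradient 9_10 A again lay within the Gradient 6_7 range, and Gradient 12 was below every other group. Each group from FPLC supermere down to Gradient 6_7 overlapped its neighbour in the order of means. In bulk preparations such as these, fewer particles of a type and less RNA per particle cannot be told apart.

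**Figure D2:**
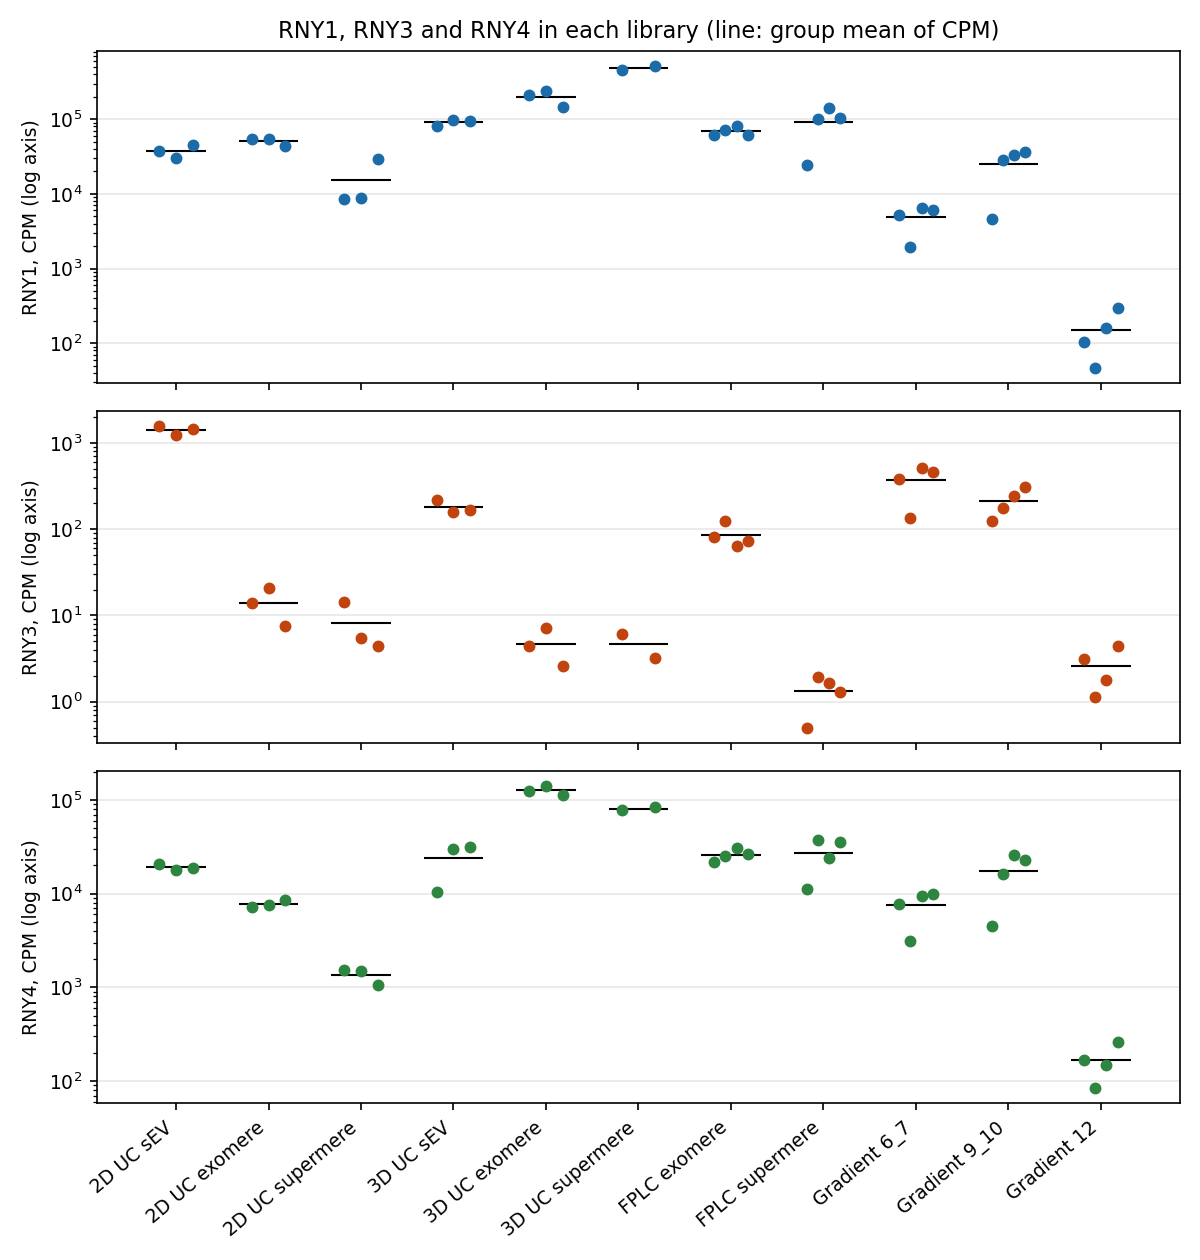
Level of RNY1, RNY3 and RNY4 in each of the 37 libraries (points, CPM on a log axis) by group, with the group mean as a line. RNY1 and RNY4 stand highest in the 3D UC exomeres and supermeres and lowest in Gradient 12, while RNY3 stands highest in the 2D UC sEV at 1236 to 1577 CPM.

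The proportions among the 3 do not depend on how libraries are scaled. RNY1 made up 62.8, 61.0 and 68.6% of the 3 members' counts in 2D UC sEV, 88.3, 87.7 and 83.7% in 2D UC exomeres and 84.6, 85.5 and 96.5% in 2D UC supermeres. RNY4 made up 34.5, 36.5 and 29.2%, 11.7, 12.3 and 16.3% and 15.3, 14.5 and 3.52% in the same order. RNY3 made up 2.65, 2.50 and 2.21% in the sEV and at most 0.142% in a 2D exomere or supermere library. The 2D sEV held a higher proportion of RNY4 and RNY3 than either particle fraction, with no overlap. Exact two-sided permutation tests over the 9 libraries gave adjusted p = 0.0321 for RNY1, 0.0229 for RNY3 and 0.0321 for RNY4, with Benjamini-Hochberg adjustment over 18 such tests (6 comparisons of the 3 shares). With the named copies added to each parent, the tests of RNY1 (adjusted p = 0.407) and RNY4 (0.434) no longer passed in exact permutation.

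In the bioreactor the order of fractions was another one. RNY4 made up 37.4, 37.1 and 43.5% of the 3 in 3D UC exomeres, above the 11.3, 23.6 and 25.0% in 3D UC sEV and the 14.6 and 14.0% in 3D UC supermeres. RNY1 correspondingly made up 60.7% ± 3.64 (SD, n = 3) in exomeres, 79.9% ± 7.48 (SD, n = 3) in sEV and 85.7% ± 0.466 (SD, n = 2) in supermeres, and the supermeres lay inside the sEV range. RNY3 made up 0.240, 0.126 and 0.133% in the sEV and at most 0.00186% in exomere and supermere libraries. The exact permutation tests over 8 libraries gave adjusted p = 0.0297, 0.0234 and 0.0268 for RNY1, RNY3 and RNY4. Leaving out single libraries took these to at most 0.0643, 0.0551 and 0.0643 (exact permutation): RNY1 and RNY4 without sEV B, supermere B or supermere C, and RNY3 without supermere C.

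The exomeres of the 2 cultures differed in RNY4, which made up 13.4% ± 2.50 (SD, n = 3) of the 3 in 2D UC exomeres and 39.3% ± 3.64 (SD, n = 3) in 3D UC exomeres. In sEV it made up 33.4% ± 3.78 (SD, n = 3) in 2D and 20.0% ± 7.54 (SD, n = 3) in 3D, the other way round. RNY3 made up 2.45% ± 0.222 (SD, n = 3) in 2D UC sEV and 0.166% ± 0.0640 (SD, n = 3) in 3D UC sEV. Permuting the culture labels within each fraction gave exact adjusted p = 0.0229 for each of the 3 shares; with the copies added, those of RNY1 and RNY4 were 0.0955 and 0.105 (exact permutation).
RNY1 made up 72.5% ± 1.92 (SD, n = 4) of the 3 in FPLC exomeres and 75.4% ± 7.25 (SD, n = 4) in FPLC supermeres, with overlapping ranges (exact permutation, adjusted p = 0.600 for RNY1 and for RNY4). RNY3 made up 0.0967, 0.126, 0.0564 and 0.0828% in FPLC exomeres and at most 0.00141% in FPLC supermeres (exact permutation, adjusted p = 0.0321). Against UC, with exomeres and supermeres as strata, all 3 shares passed at adjusted p = 0.0229 in the exact permutation test; for RNY3 this was 0.0771 with the copies added.

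In counts of the parent entries alone, not divided by length, RNY4 exceeded RNY1 in all 4 Gradient 6_7 libraries and 2 of the 4 Gradient 12 libraries. No library of the other groups showed this in counts. Per base, RNY4 exceeded RNY1 in all 4 Gradient 12 libraries and 1 of the 4 Gradient 9_10 libraries as well. With the named copies added to each parent, RNY4 was also ahead in every 2D UC sEV, 3D UC exomere, FPLC exomere, Gradient 9_10 and Gradient 12 library. It was ahead too in 2D UC supermere A and B, FPLC supermere A, B and D and 3D UC sEV C. Its mean was then 55.4% against 42.9% for RNY1 in 2D UC sEV, and 67.4% against 32.6% in 3D UC exomeres. RNY1 stayed ahead in 2D UC exomeres, at 64.4% against 35.5%, and in 3D UC supermeres, at 64.4% against 35.6%. The order thus depended on how the copies were counted. In Gradient 6_7 RNY4 made up 58.4, 59.8, 57.4 and 60.0% of the 3, RNY1 38.8, 37.6, 39.5 and 37.2% and RNY3 2.85, 2.60, 3.07 and 2.77%. These 4 libraries lay close together in their proportions, while their RNY4 level ran from 3132 to 9859 CPM. In Gradient 9_10 RNY4 made up 48.8, 36.2, 43.8 and 38.7% and RNY3 1.35, 0.390, 0.411 and 0.518%, where library A had the highest proportion of both. In Gradient 12 RNY4 made up 61.2, 63.9, 48.2 and 47.1% and RNY3 1.15, 0.876, 0.577 and 0.784%. The exact permutation tests over the 12 gradient libraries gave adjusted p = 0.0229, 0.0229 and 0.0234 for RNY1, RNY3 and RNY4. The widest 95% Wilson interval of a share was 14.7 percentage points in Gradient 12 and 2.92 elsewhere; these intervals cover counting error only, since no molecular identifiers are named and reads may be copies of 1 molecule.

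**Figure D3:**
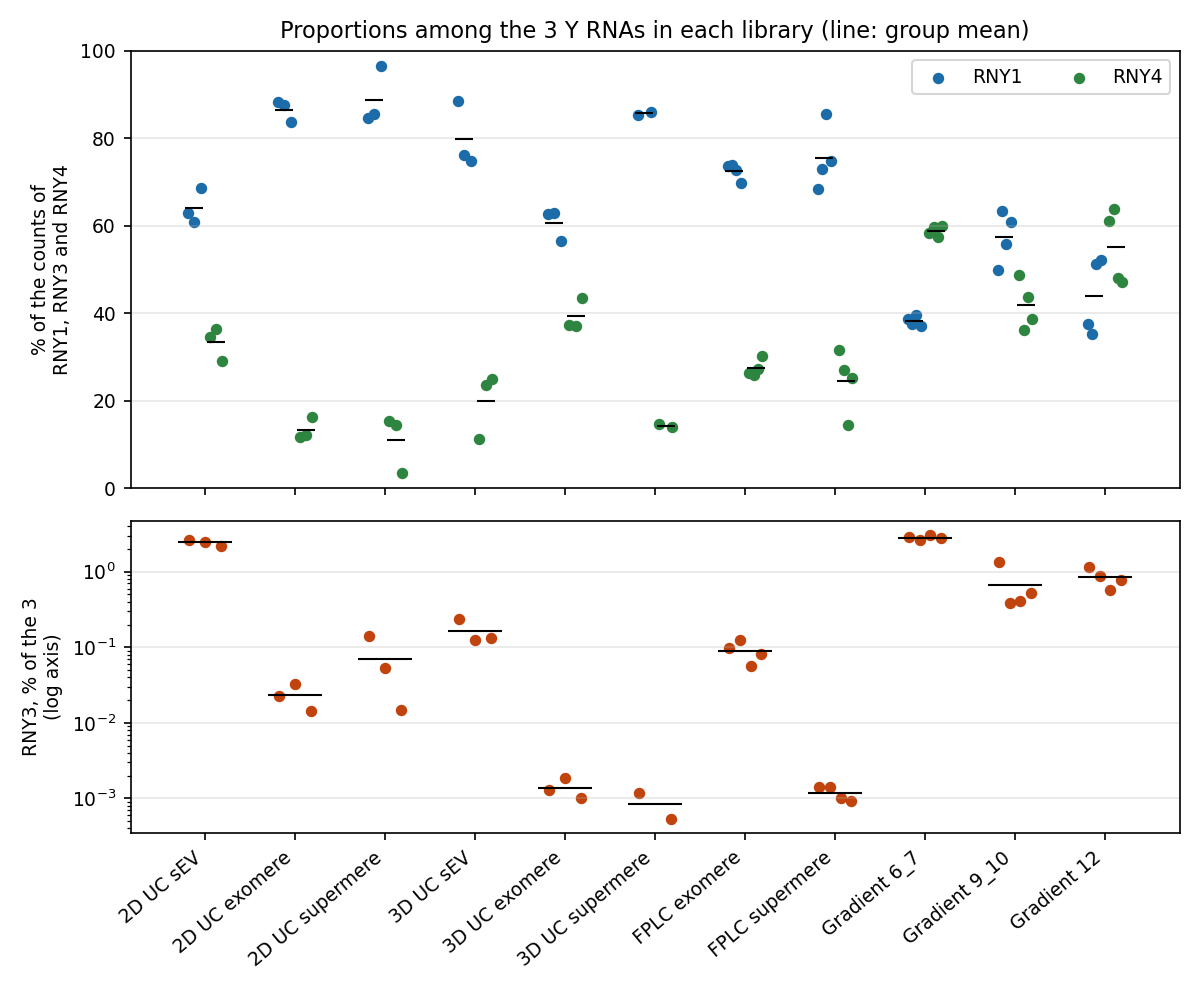
Proportion of RNY1 and RNY4 (upper panel, % of the counts of the 3) and of RNY3 (lower panel, log axis) in each library, with the group mean as a line. RNY4 exceeds RNY1 in all Gradient 6_7 libraries, and RNY3 exceeds 2% only in 2D UC sEV and Gradient 6_7.

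Fold changes were fitted with edgeR over 8979 features that passed a filter on low counts, which all 3 members passed, and a feature was called at a Benjamini-Hochberg adjusted p below 0.05. Scaling matters here. TMM aims to set the bulk of features level between libraries. Compared with library totals, it moved the median log2 fold change over all features by between -2.71 and 3.44. That median still lay off 0 in several comparisons, at -4.39 for 3D against 2D UC supermeres and 2.71 for Gradient 9_10 against Gradient 6_7. Fold changes are given on TMM scale. Where the call or the direction of one given here differed on library totals, that value is added. Some members that were not called are left out. Comparisons that use the same group share its libraries and are not independent of each other.

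In the flat culture RNY3 and RNY4 were lower in the particle fractions than in sEV. In 2D UC exomeres against sEV, 2 of the 3 members were called, beside 6.45% of all features tested, whose median log2 fold change was 0.17. RNY3 fell, with a log2 fold change of -8.29 ± 1.21 (SE, edgeR adjusted p = 1.49e-09), and its mean CPM was 101 times higher in the sEV. RNY4 changed by -2.70 ± 0.75 (SE, edgeR adjusted p = 0.00662). On library totals, which called 4.24% of features, RNY4 was at -1.30 (edgeR adjusted p = 0.296). It was not called under any of the 3 other scalings tried or by DESeq2 either (adjusted p from 0.0653 to 0.242), nor without exomere A or exomere B. RNY1 was at -1.04 ± 0.68 (SE, edgeR adjusted p = 0.695) and had the opposite sign on library totals, 0.44.
In 2D UC supermeres against sEV 2 members were called, beside 7.82% of features with a median of 0. RNY3 was at -8.24 ± 1.21 (SE, edgeR adjusted p = 1.28e-09) and RNY4 at -4.38 ± 0.80 (SE, edgeR adjusted p = 2.40e-06), and both were also called on library totals, beside 5.92% of features. RNY1 was at -1.01 ± 0.68 (SE, edgeR adjusted p = 0.645). Without supermere C, the library with the high RNY1 level, RNY1 was called, at a log2 fold change of -3.73 (edgeR adjusted p = 0.000158). Between 2D UC supermeres and exomeres no member was called by edgeR on TMM scale, beside 0.0557% of features, and 1 member had an unadjusted p under 0.05, RNY4, with a log2 fold change of -1.68. RNY4 was called on totals without Y RNA, at -2.59 (edgeR adjusted p = 0.0476), on totals without rRNA, at -2.47 (edgeR adjusted p = 0.00878), and by DESeq2, at -1.76 (adjusted p = 0.0235). RNY1 and RNY3 were at 0.03 and 0.05 on TMM scale and at -1.72 and -0.80 on library totals, and were called on neither.

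In the bioreactor RNY3 was lower in both particle fractions than in sEV, while RNY4 was called higher in exomeres and RNY1 in supermeres on TMM scale. In CPM both RNY1 and RNY4 were higher in each particle fraction than in sEV, with no overlap. In 3D UC exomeres against sEV 2 members were called, beside 6.89% of features with a median of -0.16. RNY3 was at -5.03 ± 1.05 (SE, edgeR adjusted p = 0.000182). RNY4 went up, at 2.57 ± 0.74 (SE, edgeR adjusted p = 0.0117), which was 5.26 times in mean CPM. This call of RNY4 was lost without sEV A, the library low in RNY4, or without exomere B (edgeR adjusted p up to 0.112). RNY1 was at 1.31 ± 0.68 (SE, edgeR adjusted p = 0.239) on TMM scale. With RLE factors, the DESeq2 way of scaling, it was called, at 2.91 (edgeR adjusted p = 1.24e-07), as it was on totals without Y RNA, at 3.01 (edgeR adjusted p = 0.000666), and by DESeq2, at 2.91 (adjusted p = 4.39e-05).
In 3D UC supermeres against sEV 2 members were called, beside 5.17% of features with a median of -3.22. RNY1 was at 2.99 ± 0.76 (SE, edgeR adjusted p = 0.00371) and RNY3 at -4.95 ± 1.26 (SE, edgeR adjusted p = 0.00377). RNY4 did not pass, at 2.33 ± 0.78 (SE, edgeR adjusted p = 0.0532). It did with RLE factors, at 5.23 (edgeR adjusted p = 1.08e-16), and on totals without Y RNA, at 4.79 (edgeR adjusted p = 9.88e-08). RNY3 was not called with RLE factors, at -2.31 (edgeR adjusted p = 0.249), or on totals without Y RNA, at -2.50 (edgeR adjusted p = 0.302). With only 2 supermere libraries, leaving out supermere C ended the call of RNY1, and leaving out B or C ended that of RNY3 (edgeR adjusted p up to 0.344 and 0.169); the single library left is then assumed to vary like the other groups. Between 3D UC supermeres and exomeres no member was called by edgeR on TMM scale, beside 0.245% of features; 1 member had an unadjusted p under 0.05, RNY1, with a log2 fold change of 1.68. RNY1 was called with RLE factors, at 2.94 (edgeR adjusted p = 1.80e-06), on totals without Y RNA, at 2.49 (edgeR adjusted p = 0.0356), and by DESeq2, at 2.94 (adjusted p = 0.00122).

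Against the flat culture, the bioreactor particles held more RNY1 and RNY4. In exomeres 2 members were called between cultures, beside 5.38% of features, whose median was -1.77. RNY4 was at 6.44 ± 0.89 (SE, edgeR adjusted p = 8.91e-10) and RNY1 at 4.53 ± 0.78 (SE, edgeR adjusted p = 3.10e-06). In mean CPM these were 16.2 and 3.91 times. RNY3 was at 1.19 ± 0.90 (SE, edgeR adjusted p = 0.342) and had the opposite sign on library totals, -1.55.
In supermeres 2 members were called, beside 2.03% of features, whose median was -4.39. RNY4 was at 7.88 ± 0.96 (SE, edgeR adjusted p = 4.89e-13), or 59.5 times in mean CPM. RNY1 was at 6.18 ± 0.86 (SE, edgeR adjusted p = 9.56e-10), or 31.6 times. RNY3 was at 1.21 ± 1.01 (SE, edgeR adjusted p = 0.450) and had the opposite sign on library totals, -0.78. When only these 2 groups were fitted, no member passed (edgeR adjusted p = 0.0753 for RNY1 and 0.0753 for RNY4). In sEV no member was called by edgeR on TMM scale, beside 1.96% of features: RNY1 was at 2.17 ± 0.70 (SE, edgeR adjusted p = 0.0817), RNY4 at 1.18 ± 0.71 (SE, edgeR adjusted p = 0.531) and RNY3 at -2.07 ± 0.92 (SE, edgeR adjusted p = 0.385). Before adjustment 2 members, RNY1 and RNY3, were under 0.05. RNY3 was called with RLE factors, at -3.49 (edgeR adjusted p = 0.00936), and by DESeq2, at -3.49 (adjusted p = 1.29e-08). The fit of these 2 groups alone called RNY1, at 2.16 (edgeR adjusted p = 0.00108), and RNY3, at -2.06 (edgeR adjusted p = 0.00359). That fit called 763 of 3398 features.

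The fraction effects themselves differed between cultures. The difference of the exomere effect (3D minus 2D, each against its own sEV) was called for 1 member, beside 1.12% of features: RNY4, at 5.27 ± 1.05 (SE, edgeR adjusted p = 0.00102), with all 12 fits that left out 1 library also past the threshold. For supermeres the difference was called for 2 members, beside 1.14% of features. RNY4 was at 6.70 ± 1.11 (SE, edgeR adjusted p = 3.16e-06) and RNY1 at 4.00 ± 1.02 (SE, edgeR adjusted p = 0.0113). RNY1 lost this call without 2D UC supermere A or 3D UC supermere C. Without 2D UC supermere C its difference was 6.72. RNY3 was lower in particles than in sEV in both cultures, and its difference did not pass in either fraction in edgeR on TMM scale (adjusted p = 0.230 and 0.402). DESeq2 called it in both, at 3.29 (adjusted p = 0.000655) and 4.42 (adjusted p = 7.88e-06). In supermeres it was also called with RLE factors, at 4.44 (edgeR adjusted p = 0.0253), and on totals without Y RNA, at 5.09 (edgeR adjusted p = 0.0243).

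**Figure D4:**
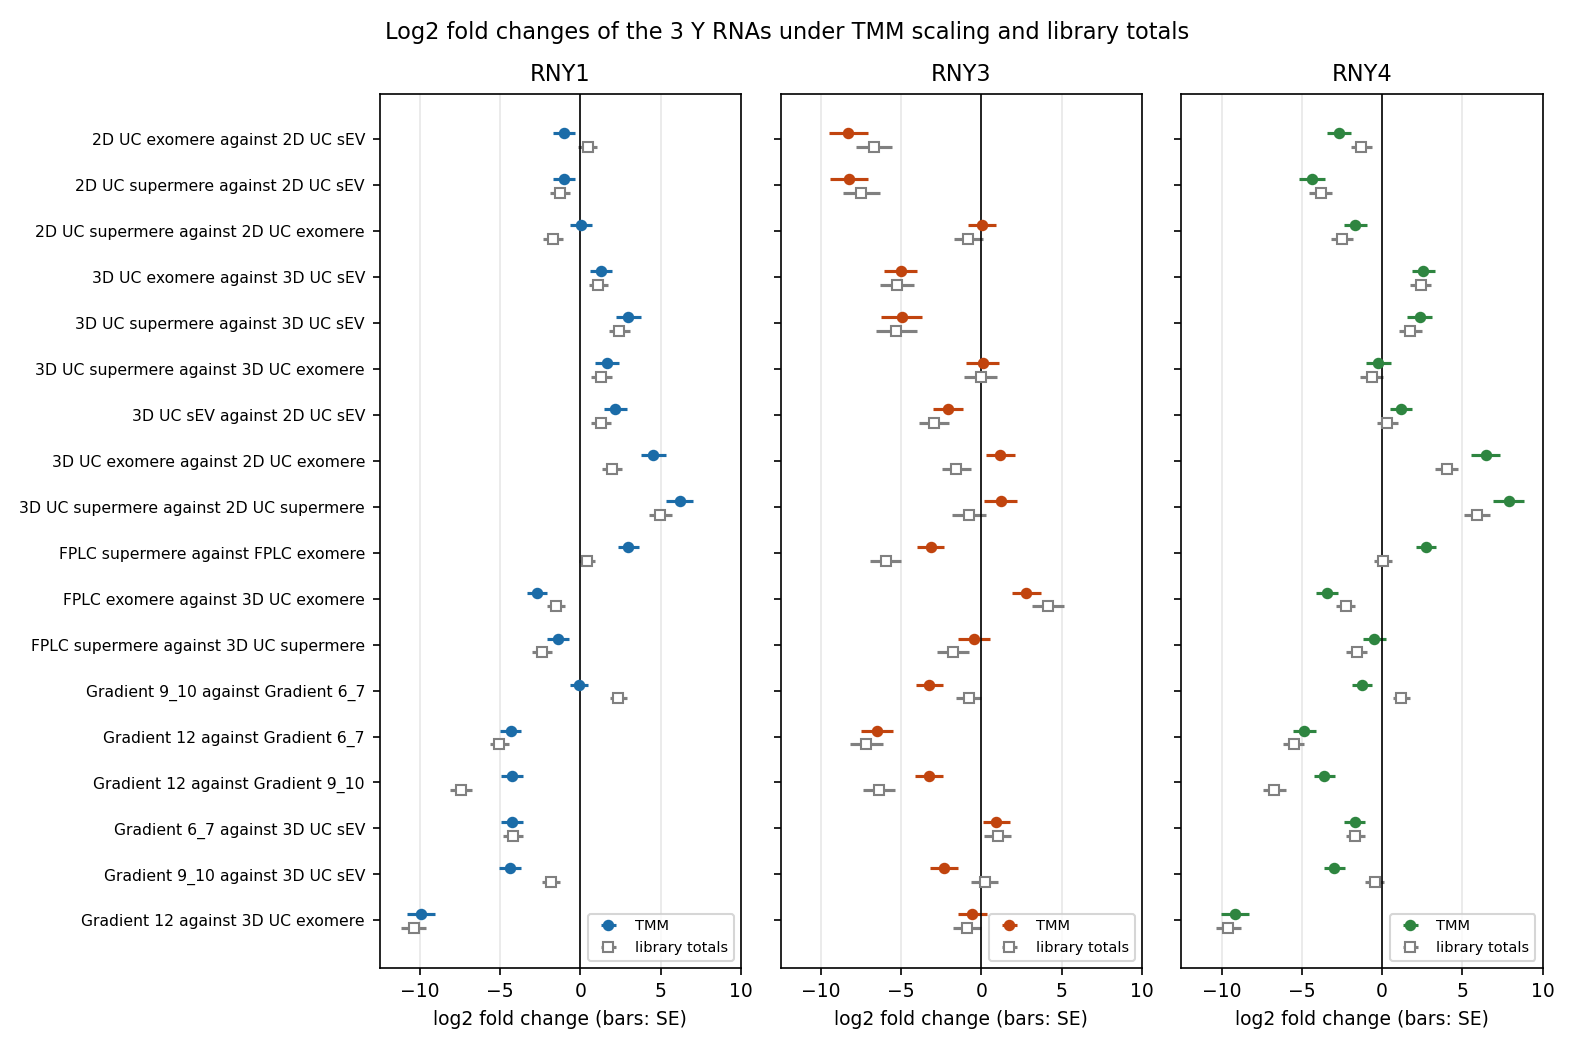
Log2 fold change of each member in 18 comparisons, with its SE as bars, under TMM scaling (filled points) and library totals (open squares). RNY3 is lower in exomeres and supermeres than in sEV of both cultures under both scalings, and RNY1 and RNY4 change sign between scalings for Gradient 9_10 against Gradient 6_7.

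Of the chromatography fractions, supermeres held less RNY3 than exomeres. All 3 members were called in FPLC supermeres against FPLC exomeres, beside 6.1% of features with a median of -1.61. RNY3 was at -3.16 ± 0.86 (SE, edgeR adjusted p = 0.00748), and its mean CPM was 63.2 times higher in the exomeres. RNY1 was at 2.99 ± 0.63 (SE, edgeR adjusted p = 0.000149) and RNY4 at 2.72 ± 0.65 (SE, edgeR adjusted p = 0.00134), but on library totals neither was called, at 0.42 (edgeR adjusted p = 0.537) and 0.04 (edgeR adjusted p = 1), and their CPM ranges overlapped. On library totals 48.2% of all features were called in this comparison. Without FPLC supermere D the adjusted p of RNY3 was 0.0525 (edgeR).

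Compared with UC exomeres of the same culture, FPLC exomeres held less RNY1 and RNY4 and more RNY3. All 3 were called, beside 5.67% of features with a median of 0.51. RNY4 was at -3.45 ± 0.69 (SE, edgeR adjusted p = 0.000123) and RNY1 at -2.71 ± 0.64 (SE, edgeR adjusted p = 0.00279). On library totals, which called 11.3% of features, RNY1 was at -1.52 (edgeR adjusted p = 0.0528), and without 3D UC exomere B its TMM adjusted p was 0.0508 (edgeR). RNY3 was at 2.81 ± 0.92 (SE, edgeR adjusted p = 0.0444) and lost its call when any of 5 of the 7 libraries was left out (3D UC exomere A, B or C, FPLC exomere B or C), and on totals without Y RNA. Its mean CPM was 18.1 times higher in the FPLC exomeres, with no overlap. FPLC exomere libraries also held more of the 7 epithelial miRNAs (15142 to 110307 CPM summed) than 3D UC exomeres (1557 to 3925 CPM), and the part of this in the RNY3 difference was not tested.
Between FPLC and UC supermeres edgeR called no member on TMM scale, beside 0.212% of features. Before adjustment 1 member was under 0.05, RNY1, with a log2 fold change of -1.40. DESeq2 called 1, RNY1, at -2.14 (adjusted p = 0.0218), and RLE factors did too, at -2.14 (edgeR adjusted p = 0.000422). On totals without Y RNA all 3 were called, RNY1 at -5.35 (edgeR adjusted p = 1.64e-13), RNY4 at -4.54 (edgeR adjusted p = 2.88e-09) and RNY3 at -4.43 (edgeR adjusted p = 0.000609). On that scale 1310 of 8944 features tested were called, 1305 of them lower. On library totals RNY1 was called, beside 0.468% of features, at -2.39 (edgeR adjusted p = 0.0208), and its CPM ranges did not overlap.

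Of the gradient pools, Gradient 12 held the least of each member. All 3 were called in Gradient 12 against Gradient 6_7, beside 7.35% of features with a median of 0. RNY3 was at -6.51 ± 1.00 (SE, edgeR adjusted p = 9.49e-09), RNY4 at -4.86 ± 0.71 (SE, edgeR adjusted p = 2.04e-09) and RNY1 at -4.35 ± 0.67 (SE, edgeR adjusted p = 9.41e-09). Against Gradient 9_10 all 3 were called too, beside 4.41% of features with a median of -1.75: RNY1 at -4.25 ± 0.66 (SE, edgeR adjusted p = 8.65e-08), RNY4 at -3.59 ± 0.67 (SE, edgeR adjusted p = 1.04e-05) and RNY3 at -3.26 ± 0.89 (SE, edgeR adjusted p = 0.00844). The RNY3 call was lost without Gradient 9_10 D, Gradient 12 B or Gradient 12 C. On library totals these 3 changes were larger, from -6.38 for RNY3 to -7.41 for RNY1, beside 44.1% of features called. RNY4 in mean CPM was 105 times higher in Gradient 9_10 than in Gradient 12.

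Gradient 9_10 against Gradient 6_7 depended on scaling. One member was called, beside 8.32% of features with a median of 2.71: RNY3, at -3.25 ± 0.84 (SE, edgeR adjusted p = 0.00581). This call was lost without Gradient 9_10 A, where RNY3 was at -2.16 (edgeR adjusted p = 0.0950), without Gradient 9_10 B, and on library totals, where it was at -0.79 (edgeR adjusted p = 0.462); it passed under none of the 4 other scalings (edgeR adjusted p from 0.113 to 0.580), though DESeq2 called it, at -1.36 (adjusted p = 0.0167). RNY1 was at -0.10 ± 0.58 (SE, edgeR adjusted p = 1) on TMM scale and at 2.37 (edgeR adjusted p = 0.000324) on library totals, under which 42.4% of all features were called. Without Gradient 9_10 A, RNY1 was at 1.09 on TMM scale (edgeR adjusted p = 0.172). RNY4 was at -1.27 ± 0.62 (SE, edgeR adjusted p = 0.163) and at 1.20 (edgeR adjusted p = 0.0667) on library totals. Gradient 9_10 held the smallest libraries of the study, from 81079 to 490374 counts.

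Set against the UC preparations of the same culture, the gradient pools held less RNY1. In Gradient 6_7 against 3D UC sEV 1 member was called, beside 5.02% of features with a median of -2.75: RNY1, at -4.27 ± 0.68 (SE, edgeR adjusted p = 1.40e-07), or 18.4 times higher in mean CPM in the sEV. RNY4 was at -1.71 ± 0.65 (SE, edgeR adjusted p = 0.109) and RNY3 at 0.93 ± 0.85 (SE, edgeR adjusted p = 0.502). In Gradient 9_10 against 3D UC sEV 2 members were called, beside 6.39% of features with a median of 0: RNY1 at -4.36 ± 0.68 (SE, edgeR adjusted p = 4.96e-08) and RNY4 at -2.97 ± 0.68 (SE, edgeR adjusted p = 0.000436). On library totals, which called 4.19% of features, RNY1 kept its call at -1.83 (edgeR adjusted p = 0.0401), and RNY4 did not, at -0.47 (edgeR adjusted p = 0.620), nor under the 3 other scalings or in DESeq2 (adjusted p from 0.295 to 0.659). RNY3 was at -2.32 ± 0.85 (SE, edgeR adjusted p = 0.0807), with the opposite sign on library totals (0.22). In Gradient 12 against 3D UC exomeres 2 members were called, beside 3.5% of features: RNY1 at -9.93 ± 0.86 (SE, edgeR adjusted p = 7.44e-27) and RNY4 at -9.13 ± 0.87 (SE, edgeR adjusted p = 1.78e-22). The mean CPM of RNY1 was 1325 times higher in the exomeres and that of RNY4 762 times. RNY3 was at -0.55 ± 0.90 (SE, edgeR adjusted p = 0.956) on TMM scale, but on totals without Y RNA it was called, at -3.19 (edgeR adjusted p = 0.00706). That setting called 1925 of 8944 features tested, 1865 of them lower.

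The counts of the RNY4 copies relative to RNY4 differed from one preparation to another. RNY4P10, RNY4P7 and ENSG00000201778.1 each held about as many counts as RNY4 itself in 3D UC exomeres, where their mean ratios to RNY4 were 1.00, 1.00 and 1.01. In FPLC supermeres the same mean ratios were 1.01, 1.00 and 1.00. In Gradient 6_7 they were lower and ran in the order of the length each shares with RNY4. RNY4P10, with 42 shared bases, was at 0.538, 0.534, 0.569 and 0.543 of RNY4, ENSG00000201778.1, with 34, at 0.414, 0.405, 0.430 and 0.403, and RNY4P7, with 32, at 0.214, 0.206, 0.235 and 0.198. RNY4P20, with 30, was at 0.0229 to 0.0276. What sets these ratios was not tested.
The 2D UC sEV were intermediate for RNY4P7, at 0.544, 0.518 and 0.509, against 0.905 to 0.969 in 3D UC sEV and 0.995 to 0.999 in 2D UC exomeres, and none of these ranges overlapped. Gradient 9_10 A, at 0.445 for RNY4P7, stood apart from Gradient 9_10 B, C and D at 0.914, 0.955 and 0.921. RNY4P20 was highest after chromatography, at 0.860, 0.647, 0.877 and 0.914 of RNY4 in FPLC exomeres and 0.998, 0.865, 0.977 and 0.998 in FPLC supermeres, while its highest value elsewhere was 0.463. These ratios describe the counts and were not tested between groups.

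**Figure D5:**
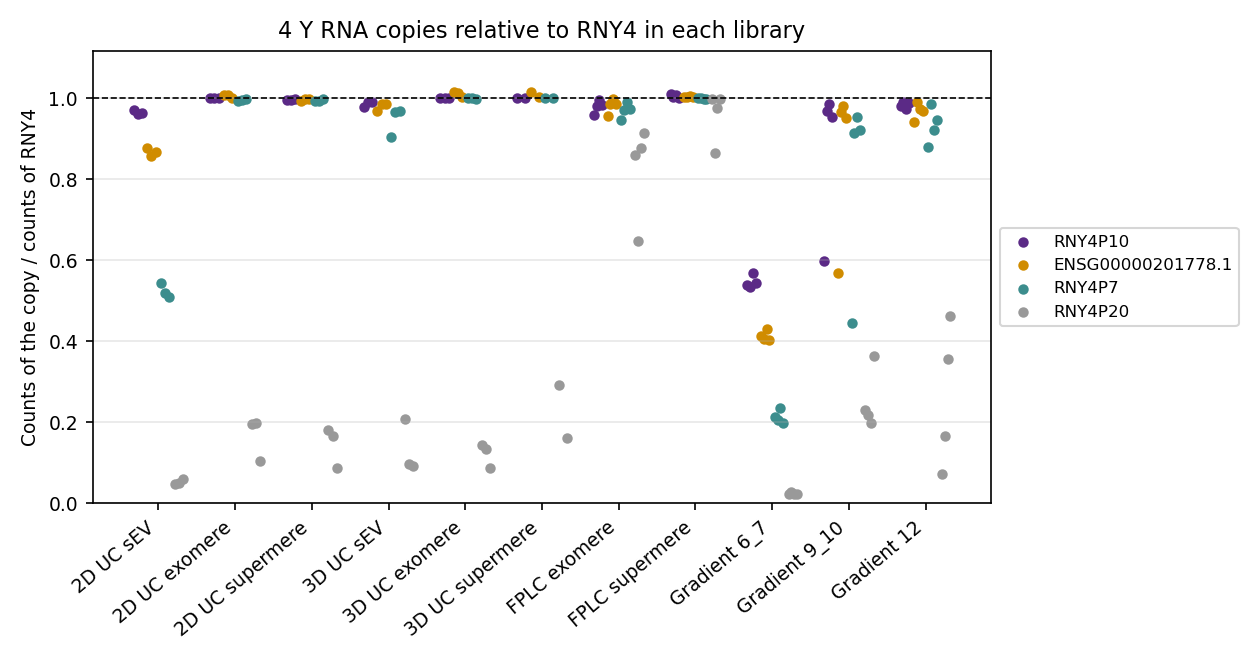
Counts of 4 Y RNA copies divided by the counts of RNY4 in each library, by group, with the dashed line at equal counts. The 3 copies with 32 or more shared 5′ bases lie near 1 in the exomere and supermere groups and lowest in Gradient 6_7, and RNY4P20 exceeds 0.6 in FPLC groups alone.

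RNY4 held a smaller part of its family's counts than RNY1 and RNY3 did. RNY4 itself made up 8.39 to 18.8% of the counts of RNY4 plus its 22 named copies in 2D UC supermeres, 9.46 to 15.9% in Gradient 12, 31.1 to 31.5% in 3D UC exomeres and 52.7 to 54.1% in Gradient 6_7. RNY1 made up at least 90.3% of the counts of RNY1 plus its 15 copies in every library. RNY3 made up at least 62.9% of RNY3 plus its 14 copies. With the named copies added to each parent, 58 of 60 edgeR results of single members stayed on their side of the threshold. The other 2 passed: RNY4 in 3D UC supermeres against sEV, at 2.42 (edgeR adjusted p = 0.0269), and in Gradient 6_7 against 3D UC sEV, at -2.47 (edgeR adjusted p = 0.00511).

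Other RNA polymerase III transcripts were counted beside the 3 members. Of 18 on a list of such genes, 12 were found and tested, among them VTRNA1-1 (a vault particle RNA), RN7SK (which holds the elongation factor P-TEFb inactive) and RN7SL1 (an RNA of the signal recognition particle). RNU6-1, RNU6-2, RNU6-7 and RNU6-9, copies of the spliceosomal U6 RNA, are 4 of the 12 and had near-identical counts within the pairs RNU6-1 and RNU6-7, and RNU6-2 and RNU6-9, so they are not separate measurements. In 2D UC exomeres against sEV 6 of the 12 were lower and 0 higher, with a median log2 fold change of -3.96, beside 6.45% of all features called either way; under the other scalings 4 to 5 were lower. In 2D UC supermeres against sEV 10 were lower, with a median of -4.41, beside 7.82% of features, and 5 to 8 under the other scalings. In the bioreactor 8 were lower in exomeres than in sEV (median -3.79), beside 6.89% of features, with 0 to 8 under the other scalings, and 10 in supermeres (median -5.73), beside 5.17%, with 3 to 10. The U6 copies gave 0, 4, 4 and 4 of these lower calls in turn. None was higher in these 4 comparisons under any of the 5 scalings, and the medians over all features on TMM scale, in the same order, were 0.17, 0, -0.16 and -3.22. RNY3 was called lower in the same 4 comparisons, while RNY4 was lower in the 2D pair alone and RNY1 in none of them.
Between FPLC supermeres and exomeres 7 of the 12 were lower and 0 higher, beside 6.1% of features called; 4 of the lower ones were U6 copies. RNY3 was lower too and RNY1 and RNY4 were not. Between 3D and 2D UC exomeres 7 were higher and 0 lower on TMM scale, beside 5.38% of features called. Among them were RN7SL1, RN7SL2 and RN7SL3, which had similar levels to each other in these groups. Their mean CPM was 37.8, 37.3 and 35.0 in 3D and 29.9, 30.5 and 26.3 in 2D. On library totals 3 were higher and 2 lower, where 4442 of all 8979 features were called. In Gradient 12 against Gradient 9_10, 6 were higher and 0 lower on TMM scale (4 of them U6 copies), beside 4.41% of features. All 3 members were lower there. On library totals 1 was higher and 5 lower, where 44.1% of all features were called. RN7SK was at 8.91 ± 1.06 (SE, edgeR adjusted p = 2.06e-13) in that comparison.
VTRNA1-1 was lower in 3D UC exomeres than in sEV, at -3.66 ± 1.05 (SE, edgeR adjusted p = 0.0164), where RNY4 was higher. It was higher in 3D than in 2D exomeres, at 5.99 ± 1.17 (SE, edgeR adjusted p = 0.000482), as RNY4 and RNY1 were. The list was chosen with earlier results of these data known, and its counts describe these libraries.

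Across the 37 libraries RNY1 and RNY4 were alike in the order of their levels. Outside the Y RNA class, RNY3 was most like microRNAs. Spearman's rho of log2(CPM + 1) was 0.89 between RNY1 and RNY4, -0.14 between RNY1 and RNY3 and 0.02 between RNY3 and RNY4. Among 338 features outside the Y RNA class with a mean of at least 50 CPM, those most like RNY3 were hsa-miR-93-5p (0.97), hsa-miR-7-5p (0.97) and hsa-miR-103a-3p (0.96). Those most like RNY4 were the mitochondrial serine tRNA chrM.tRNA18-TS2 (0.73), RNU4-5P (0.64) and RNU4-4P (0.61). RNY1 was most like the same tRNA (0.72), RNU11 (0.62) and chrM.tRNA20-TE (0.62). Among 81 other Y RNA entries, RNY4 was most like RNY4P10, ENSG00000201778.1 and RNY4P7 (each 0.99), RNY1 was most like ENSG00000206925.1 (0.93), ENSG00000201778.1 (0.92) and RNY4P7 (0.91), and RNY3 was most like ENSG00000200291.1 (0.97), ENSG00000200090.1 (0.97) and ENSG00000199410.1 (0.96). These values are descriptions over libraries that share groups, medium and depth, and entries that share sequence may share reads.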

How the data were processed

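Small RNA libraries of 11 groups were compared. The authors deposited 1 table of expected counts by feature, not scaled, of which 6.71% of values are not whole (tolerance 1e-06). The submitters' processing notes name cutadapt 4.5, FastQC 0.12.1, Bowtie 1.3.1 and GRCh38.p13; the counting tool, its annotation and the rule for reads with several matches are not given in the sources used here. CPM was computed from the unrounded counts and the library total. Libraries under 10000 counts were left out (1 of 38). Counts were rounded and fitted with edgeR 4.0.16 in R 4.3.3 (quasi-likelihood, robust, TMM, 11 group means, 26 residual degrees of freedom), after a filter at a minimum count of 10 that left 8979 features. The fit's common coefficient of variation between libraries was 1.20, and TMM factors ran from 0.0670 to 8.99. SE is the absolute log2 fold change divided by the square root of F. P-values were adjusted by Benjamini-Hochberg over all features, with a threshold of 0.05. Shares were tested by exact two-sided permutation over libraries. The edgeR fit was tried on simulated counts and the permutation test on small sets of made-up values. The simulation gave all groups the same profile apart from features changed in 1 group. It therefore could not test scaling between groups as unlike as these. Alternatives were other scalings, no filter, all 38 libraries, copies added, fits of 2 groups, DESeq2 1.42.0, each library left out and a replicate block. Library letters were checked for pairing: only for 2D UC supermere against exomere did every same-letter pair correlate over 0.1 (0.109 to 0.413), which the data give and the labels do not. The members are named by rule, with the 3 features of each kind most like each member by Spearman correlation. The sequence of RNY3 is not reported here. Members and lists were chosen with earlier results of these data known.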

Additional observations from a re-analysis of the deposited data

Results flagged for a closer look

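The RNY3 share in Gradient 9_10 A, 1.35% of the counts of the 3 members, stood apart from those of the other 3 libraries of its group. It was the 1 case among the 30 tested for a lone high or low library in groups of 4, where chance gives about 1 in 20. The effect of the fraction differed between the cultures by the interaction terms of the edgeR fit: by 5.27 (log2, 3D minus 2D) for RNY4 in exomeres against sEV, by 4.00 for RNY1 in supermeres against sEV and by 6.70 for RNY4 in supermeres against sEV. The 3D UC supermere A library, which entered no comparison, held 21 counts of RNY1 among its 46 counts in total, above the 3 counts that a count of 0 allows.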

How the results depend on the processing

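The number of members called (of 3) moved by more than 1.5 times in the following cases, and the cause was not tested. In 2D UC exomeres against sEV it was 2, and 1 under RLE factors, library totals, totals without Y RNA, totals without rRNA and DESeq2. In 2D UC supermeres against exomeres it was 0, and 1 on totals without Y RNA, totals without rRNA and in DESeq2. In 3D UC supermeres against exomeres it was 0, and 1 under RLE, totals without Y RNA and DESeq2. In 3D against 2D UC sEV it was 0, with 1 under RLE and DESeq2. It was 2 when only the 2 groups were fitted (763 of 3398 features called). In 3D against 2D UC supermeres the fit of the 2 groups alone gave 0 in place of 2 (0 of 4435 features called). In FPLC supermeres against exomeres it was 3, and 1 on library totals and totals without Y RNA. In FPLC against 3D UC supermeres it was 0, with 1 under RLE, library totals and DESeq2. On totals without Y RNA it was 3 (1310 of 8944 features called). In Gradient 9_10 against 6_7 it was 1, and 0 without the filter. It was 2 on totals without Y RNA (3862 of 8944 features called) and in DESeq2 (2062 of 8979). In Gradient 6_7 against 3D UC sEV it was 1, and 3 when only the 2 groups were fitted (718 of 1195 features called). It was 2 on totals without Y RNA, totals without rRNA, without the filter, with copies added and in DESeq2. In Gradient 9_10 against 3D UC sEV it was 2, and 1 under RLE, library totals, totals without Y RNA, totals without rRNA, the 2 groups alone and DESeq2. The culture difference in exomeres was called for 1, with 2 under RLE and 3 in DESeq2, and that in supermeres for 2, with 1 without the filter and with all 38 libraries. Smaller moves were from 2 to 3 in 3D UC exomeres against sEV (RLE, totals without Y RNA, the 2 groups alone, DESeq2), in 3D UC supermeres against sEV (copies added, the 2 groups alone, DESeq2), in Gradient 12 against 3D UC exomeres (totals without Y RNA) and for the culture difference in supermeres (RLE, totals without Y RNA, DESeq2). They were from 3 to 2 in FPLC against UC exomeres (library totals, totals without Y RNA, totals without rRNA, no filter) and in FPLC supermeres against exomeres (no filter). The fits of 2 groups called 543 of 1365 features in 3D UC exomeres and 524 of 1527 in 3D UC supermeres, each against sEV. Totals without Y RNA called 1925 of 8944 in Gradient 12 against 3D UC exomeres. In Gradient 9_10 against 6_7 RNY1 turned from -0.10 to 1.77 under RLE, 2.37 on library totals, 2.52 on totals without Y RNA, 2.06 on totals without rRNA, 2.26 with the 2 groups alone and 1.77 in DESeq2, and RNY4 from -1.27 to 1.36 on totals without Y RNA. With copies added, exact permutation adjusted p-values of shares were 0.407 (RNY1) and 0.434 (RNY4) over 2D fractions, 0.0955 and 0.105 between cultures, and 0.0771 for RNY3 between FPLC and UC; shares per base kept all 18 tests on their side. Leaving out single libraries gave 1 to 2 members in 2D UC exomeres against sEV, 1 to 2 in 3D UC exomeres against sEV, 0 to 2 in 3D UC supermeres against sEV, 1 to 3 in FPLC against UC exomeres, 0 to 1 in Gradient 9_10 against 6_7, 1 to 2 for the culture difference in supermeres, 2 to 3 in 2D UC supermeres against sEV, 2 to 3 in FPLC supermeres against exomeres, 2 to 3 in Gradient 12 against 9_10 and 2 to 3 in Gradient 9_10 against 3D UC sEV; the counts of the other 10 comparisons stayed. It gave exact permutation adjusted p from 0.0229 to 0.0643 for the RNY1 and RNY4 shares over 3D fractions and from 0.0291 to 0.0551 for RNY3. With the library letter as a replicate block, 18 of the 20 counts of members called stayed as they were, that of the 1 paired comparison among them. FPLC against UC exomeres went from 3 to 2, as RNY3 was at 2.69 (edgeR adjusted p = 0.0712), and Gradient 9_10 against 3D UC sEV from 2 to 3, as RNY3 was at -2.65 (edgeR adjusted p = 0.0496); letters do not pair libraries there. The count of all features called moved by over 1.5 times in 10 of 20 comparisons under RLE, 11 on library totals, 13 on totals without Y RNA, 13 on totals without rRNA, 10 without the filter, 2 with the block, 9 of 18 with the 2 groups alone and 13 in DESeq2, and in 0 with copies added or all 38 libraries. On library totals it went from 483 to 4442 in 3D against 2D UC exomeres. Depth limits RNY3 in Gradient 12, FPLC supermeres and 3D UC supermeres, where it had few counts.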
